A study of Homo sapiens with 5 samples.

Results

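Start-site calls at genes named LINC followed by a number were examined in HUDEP-2 cells, an immortalised human line of erythroid progenitors. A call was a member when it lay on the forward strand within 500 bp of the left end, or on the reverse strand within 500 bp of the right end, of a RefSeq long non-coding RNA (lncRNA) gene with such a symbol. On chromosomes 1 to 22 and X this gave 145 of 28159 calls, 71 forward and 74 reverse, at 122 of 2301 LINC genes. The rule used positions and names only.

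The series holds PRO-seq libraries of 3 clones, each grown from 1 cell after editing of the BCL11A enhancer with sg1617 (a 1 bp insertion, a 13 bp deletion and a 15 bp deletion, 1 library each) and of unedited, wild-type HUDEP-2 cells (2 libraries). PRO-seq sequences RNA that engaged polymerases extend with biotin-labelled nucleotides in a nuclear run-on. Each edited genotype is 1 clone. The 2 call lists analysed here, 1 per strand, have no column per library, so edited and unedited cells could not be compared. Their header names 1 HUDEP-2 alignment that is the title of no sample. The score is 0 in every row, so neither the reads behind a call nor the depth is known, and there are no replicates.

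The symbol LINC is given to long intergenic non-coding RNA genes that have no name from a function. Such RNAs are transcribed by RNA polymerase II and often spliced, and many are found in few tissues and at low levels. RNA polymerase II often starts in both directions at 1 promoter, and a lncRNA can arise as the divergent partner of a protein-coding gene or from a promoter of its own.

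The sequences around calls were read for the letters at the deposited position. The promoter table from RefSeq (GRCh38.p14, which has the coordinates of the hg38 build used by the submitters) held the bases around 46 member calls. The commonest initiation site of RNA polymerase II has a C followed by an A, with the A as the first base of the RNA. Of the 46 calls, 13 (28.3%, Wilson 95% interval 17.3 to 42.5%) had a CA with the A 1 base downstream of the called base, and 1 (2.17%, interval 0.385 to 11.3%) had the A at the called base itself. At calls of protein-coding genes these shares were 34.3% and 1.46% of 5427. At each of the other offsets examined, from 3 bases upstream to 4 downstream, 1 to 3 member calls had a CA. By strand, the A was 1 base downstream at 9 of 20 forward and 4 of 26 reverse calls. Offsets below are given as deposited. The lines that follow show 10 of the 13, from 20 bases before to 20 bases after the call, 5′ to 3′, with the called base and the next base in capitals.
LINC01134, chr1:3900385-3900425, plus strand: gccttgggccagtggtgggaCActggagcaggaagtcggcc
LINC00667, chr18:5238090-5238130, plus strand: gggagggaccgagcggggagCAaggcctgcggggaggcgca
LINC00674, chr17:68101554-68101594, plus strand: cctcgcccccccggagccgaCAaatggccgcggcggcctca
LINC00847, chr5:180830939-180830979, plus strand: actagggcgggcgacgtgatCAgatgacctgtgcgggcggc
LINC02482, chr4:6673862-6673902, minus strand: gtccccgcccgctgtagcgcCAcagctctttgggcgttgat
LINC02610, chr2:238231649-238231689, minus strand: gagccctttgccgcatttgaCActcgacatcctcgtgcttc
LINC02917, chr3:152205417-152205457, minus strand: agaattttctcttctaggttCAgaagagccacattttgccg
LINC03009, chr7:76549312-76549352, plus strand: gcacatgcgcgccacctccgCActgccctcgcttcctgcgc
LINC02901, chr6:158870008-158870048, plus strand: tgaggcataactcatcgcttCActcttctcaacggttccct
LINC01560, chrX:47482633-47482673, plus strand: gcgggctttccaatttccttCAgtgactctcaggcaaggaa
They come from genes with and without a protein-coding neighbour, and these 10 calls lie from 63 bp upstream (LINC01560) to 214 bp downstream (LINC02901) of the annotated end. Those not shown were at LINC01132 (-225 bp), LINC02354 (22 bp) and LINC02939 (-13 bp).

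Few LINC genes carried a call. The 122 called genes were 5.30% of the 2301 (interval 4.46 to 6.29%), against 10.2% of 15876 other lncRNA genes, 42.2% of 19974 protein-coding genes and 18.9% of all 59098 genes by the same rule. Intervals here and below cover counting only, and genes and calls are not replicates. Counting calls of both strands over the gene body and its 500 bp flanks, 205 LINC genes (8.91%, interval 7.81 to 10.1%) had at least 1. Of the other lncRNA genes, those named -DT as divergent transcripts were called in 56.7% of 591. Those with no suffix or name for a divergent, antisense, intronic, overlapping or host transcript were called in 6.65% of 13046 (interval 6.24 to 7.09%).

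Called genes were spread over all chromosomes examined. Chromosome 7 had 10 of its 63 LINC genes called (15.9%) and chromosome 22 had 5 of 35 (14.3%). Chromosome 10 had 1 of 123 (0.813%) and chromosome 13 had 2 of 153 (1.31%). The lone call of chromosome 10, at LINC02916, lay at 43420586 with a divergent partner 123 bp away. Called genes were shorter, with a median of 6745 bp (quartiles 2680 and 31232 bp), than uncalled ones, with 14257 bp (quartiles 5284 and 38320 bp).

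Most called genes had a single call. Within the window, 102 genes had 1 member call, 17 had 2 and 3 had 3 or more. Calls on the strand of the member call were also counted over the whole gene and 500 bp upstream. Of the 115 genes met at 1 end, 85 had 1 such call, 22 had 2, 3 had 3 and 5 had 4. That strand is not always the annotated strand of the gene. The genes with 4 were LINC01011, LINC01465, LINC01978, LINC02739 and LINC03040. LINC01465 (chromosome 12, 62601751 to 62603434, 1684 bp) had the highest density of these, with 2.38 calls per kb. LINC03040 (chromosome 6, 44000585 to 44007612) had 0.569 per kb, and only its first call, 48 bp inside the gene, lay in the window. LINC00963, LINC01215 and LINC01366 had 3 calls each. The 7 genes met at both ends are not in these counts. Among them, LINC02983 had 4 forward and 5 reverse calls. LINC03073, which overlaps it, had 4 forward calls (2.75 per kb) and 3 reverse calls.

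The rule takes the strand from the end that a call meets, and the promoter table gives the annotated strand for 91 of the 122 genes. At these genes 97 of 110 calls lay on the annotated strand and 13 on the other, where they run antisense from the gene's far end. For 84 genes at least 1 call was on the annotated strand. For 7 genes every member call was on the other strand, namely LINC00957, LINC01877, LINC02029, LINC02332, LINC02766, LINC02896 and LINC02951. LINC02896 on chromosome 15 was met by a forward call at 69456249, whereas LINC02896 is annotated on the reverse strand. That call lay 44 bp beyond the right-hand end of RPLP1, a ribosomal protein gene, and did not meet the rule at RPLP1. LINC02951 was met by a forward call 209 bp from RAB30 that also met the rule at RAB30-DT. The calls at these 7 genes do not mark a start of the LINC RNA as annotated.

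LINC00235, LINC01023, LINC01063, LINC01126, LINC01816, LINC02983 and LINC03073 met the rule at both ends. Their lengths were 437 to 2651 bp. LINC01023 (chromosome 5, 108727825 to 108728261) had a forward call at 108727881 and a reverse call at 108728291, with divergent partners at 127 and 126 bp. LINC02983 and LINC03073 overlap on chromosome 7 and together had 6 member calls between 5426573 and 5430032, of which 4 were paired.

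Within the window of the rule, calls at LINC genes lay less close to the annotated end than calls at protein-coding genes. The rule admits only offsets up to 500 bp, in all 3 classes alike, so closeness as such is partly set by it. With a window of 1000 bp the share of member calls within 50 bp, given below, was 34.0%. The median offset was 10 bp downstream (95% interval of the median 3 to 23 bp, quartiles -17 and 83 bp), against 3 bp (quartiles -1 and 35 bp) for 9521 calls of protein-coding genes and 14 bp (quartiles -10 and 93 bp) for 1744 calls of other lncRNA genes. Within 50 bp of the end lay 70 of 145 member calls (48.3%, interval 40.3 to 56.3%), against 70.5% at protein-coding genes, an odds ratio of 0.391 (two-sided Fisher's exact test, adjusted p = 7.43e-08). At other lncRNA genes the share was 48.9%, and the difference did not pass the test (odds ratio 0.975, adjusted p = 0.931, Fisher's exact test). These p-values and those on pairing are Benjamini-Hochberg adjusted over 4 tests.

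**Figure D1:**
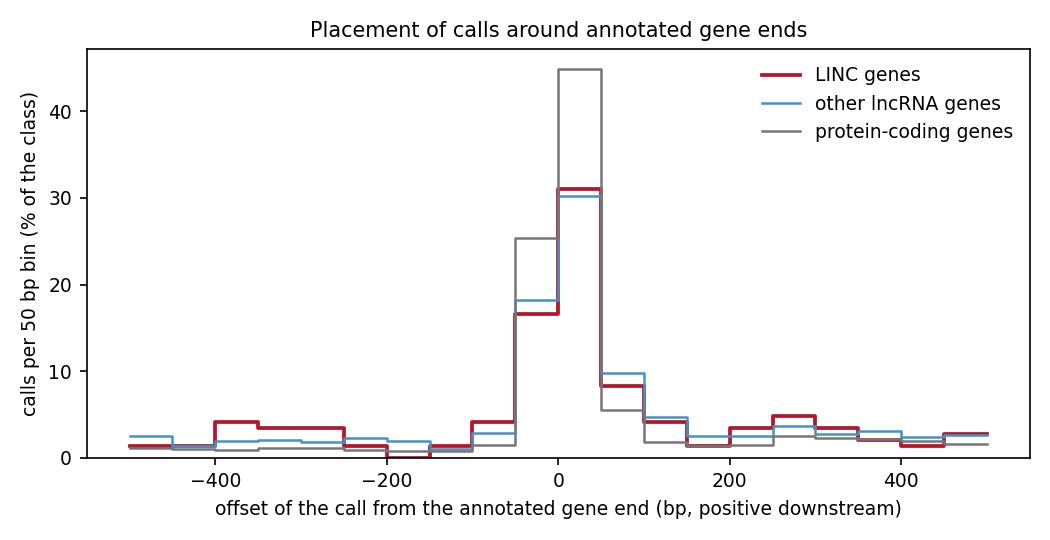
Share of calls per 50 bp bin (vertical axis, % of the class) by offset from the annotated gene end (horizontal axis, bp, positive downstream) for 145 calls of LINC genes, 1744 of other lncRNA genes and 9521 of protein-coding genes. All 3 lines peak next to 0, and the LINC line runs with that of other lncRNA genes, below the peak of protein-coding genes.

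By deposited position, the calls closest to the annotated end were at its base or next to it. LINC01399 (chromosome 22, 35119824 to 35231056) was called at 35231056, an offset of 0 bp. At -1 bp were 8 calls, at LINC00471, LINC01275, LINC02235, LINC02482, LINC02569, LINC03044, LINC03063 and LINC03073. LINC01134 was called at 1 bp. In LINC02482 the called base is the C of a CA, as printed above, so that the A is the annotated first base. In all, 54 calls lay upstream of the annotated end and 90 downstream. The members nearest to the limit were at LINC01978 (487 bp), LINC02766 (-476 bp) and LINC00963 (465 bp). The first calls beyond it were at LINC00533 (504 bp), LINC01366 (505 bp) and the far end of LINC01978 (-506 bp).

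Member calls lacked a divergent partner more often than calls of other genes. Pairing means that the opposite strand had a call at most 1000 bp upstream. Some member calls shared a partner, as at LINC01144, and calls of LINC genes that pair with each other count separately. The paired calls are therefore not all independent. Of 145 member calls 75 were paired (51.7%, interval 43.7 to 59.7%), against 66.3% of 9521 calls of protein-coding genes (odds ratio 0.545, adjusted p = 5.00e-04) and 75.2% of 1744 calls of other lncRNA genes (odds ratio 0.354, adjusted p = 2.76e-08, two-sided Fisher's exact tests). The other lncRNA genes include those named for being divergent, whose calls were paired in 83.2% of 387. With all genes named -DT, -AS, -IT, -OT or HG left out, an alternative added after seeing the data, 72.9% of 899 calls were paired (odds ratio 0.399, adjusted p = 1.55e-06, Fisher's exact test). Partners lay at a median of 140 bp from member calls (quartiles 107 and 232 bp, range 11 to 893 bp), against 177 bp at protein-coding genes and 180 bp at other lncRNA genes, which was not tested.

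The partner of a paired member call was at a protein-coding gene in 19 cases, at another LINC gene in 8, at another lncRNA gene in 6 and at another kind of gene in 4. In 38 cases (50.7%, interval 39.6 to 61.7%) the partner was at no annotated gene end. The 19 with a protein-coding partner belonged to 18 LINC genes.

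Among the pairs with a partner at a protein-coding gene, the 10 closest were 14 to 182 bp apart. The closest pair of all was at LINC02453, 11 bp from a call at the tRNA gene TRD-GTC1-1, and the call of LINC00886 and 1 call of LINC01126 had partners at no gene end 18 and 31 bp away. LINC02603 (chromosome 9, 94176569 to 94259311) was called at 94259313, 14 bp from the forward call of ZNF169, a zinc finger gene. LINC01424 was called 56 bp from the call of UBE2G2, a ubiquitin-conjugating enzyme of protein quality control in the endoplasmic reticulum. LINC01389 was called 94 bp from that of the forkhead factor gene FOXD2. The pairs of LINC00957 with DBNL, LINC01547 with SLX9 and LINC00449 with TM9SF2 were 108, 109 and 111 bp apart. Gaps of 135, 141, 146 and 182 bp separated LINC00529 from MTMR9, LINC01521 from PATZ1, LINC01134 from C1orf174 and LINC01786 from UBE2J2. Some of these calls were far from the LINC gene's own end, at -364 bp for LINC01424 and -353 bp for LINC01389, whereas LINC01134 and LINC02603 were met at 1 and -2 bp. The call of LINC00957 was on the strand opposite to its annotation.

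LINC01126 (chromosome 2, 43227211 to 43228855) stood next to ZFP36L2, an RNA-binding protein that promotes decay of messenger RNAs and is known in mouse to maintain early erythroid progenitors. Its forward call at 43226865 had an offset of -346 bp and lay 261 bp from the reverse call of ZFP36L2. A further forward call at 43227358 had a reverse partner 31 bp away at no annotated gene end, and an unpaired reverse call at 43228552 met the far end.

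LINC genes were also each other's partners. LINC00526 and LINC00667 on chromosome 18 had a reverse call at 5238040 and a forward call at 5238110, 70 bp apart, with offsets of -11 and 10 bp. A further reverse call of LINC00526 lay at 5237778. LINC03100 and LINC01881 on chromosome 2 were called 126 bp apart, at 242088557 and 242088683. On chromosome 7 the call of LINC03015 at 149164 lay 107 bp from that of LINC03014 at 149271, and a further forward call of LINC03014 lay at 149609. LINC00339 and LINC01635 on chromosome 1 instead had calls that face each other, a forward call at 22025512 and a reverse call at 22025856, 344 bp apart, and neither was paired. LINC02987 and LINC00662 on chromosome 19 likewise had facing calls 437 bp apart, at 27793462 and 27793899, and the call of LINC00662 had its own divergent partner at 140 bp.

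**Figure D2:**
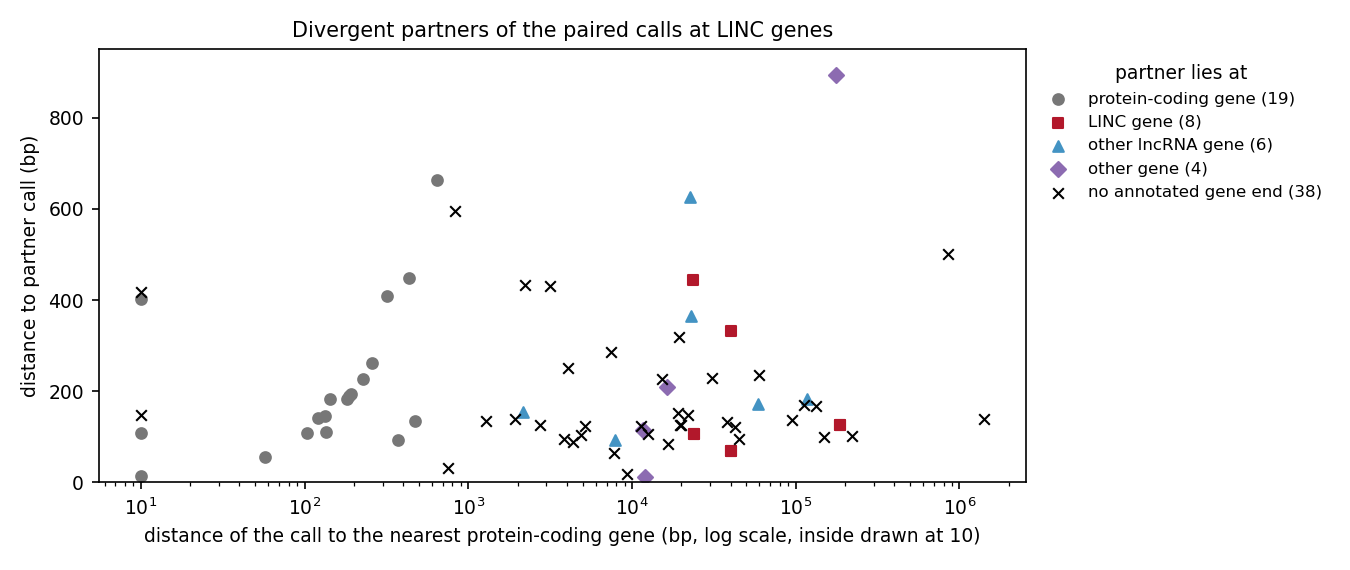
Distance from each of the 75 paired calls to its partner call (vertical axis, bp) against distance to the nearest protein-coding gene (horizontal axis, bp on a log scale, calls inside a gene drawn at 10), with symbols for what the partner lies at. The 19 partners at protein-coding genes lie with calls inside or within 1000 bp of such a gene, and the 38 partners at no annotated gene end extend to the farthest calls.

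Distance to the nearest protein-coding gene, taken to its closer end for calls outside it, had a median of 12499 bp over member calls (quartiles 2212 and 40349 bp). Of the 145 calls 11 lay inside a protein-coding gene, 21 within 1 to 1000 bp of one, 34 beyond that up to 10000 bp, 59 beyond that up to 100000 bp and 20 farther away. Among calls within 1 to 1000 bp, 18 of 21 were paired (85.7%), and 16 of these partners were at a protein-coding gene. Among all calls over 1000 bp away, 52 of 113 were paired (46.0%, interval 37.1 to 55.2%), and over 10000 bp away 37 of 79 (46.8%, interval 36.2 to 57.7%). In the 3 outer classes it was 15 of 34 (44.1%), 27 of 59 (45.8%) and 10 of 20, with overlapping intervals.

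The share of LINC genes with a call was highest at 1 to 1000 bp from a protein-coding gene and lower in each class beyond, and also lower in LINC genes that overlap one. Measured from gene to gene, it was 12.8% of 125 LINC genes that overlap a protein-coding gene, 14 of 56 at 1 to 1000 bp (interval 15.5 to 37.7%), 9.06% of 287 from there to 10000 bp, 5.12% of 938 from there to 100000 bp and 2.01% of 895 beyond (interval 1.28 to 3.16%). Called LINC genes lay a median of 12184 bp from a protein-coding gene and uncalled ones 64284 bp. The nearest protein-coding gene was itself called for 67 of 122 called LINC genes (54.9%, interval 46.1 to 63.5%) and for 745 of 2179 uncalled ones (34.2%, interval 32.2 to 36.2%). Among LINC genes over 10000 bp away these shares were 28 of 66 (42.4%, interval 31.2 to 54.4%) and 634 of 1767 (35.9%, interval 33.7 to 38.1%), and the intervals overlap.

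**Figure D3:**
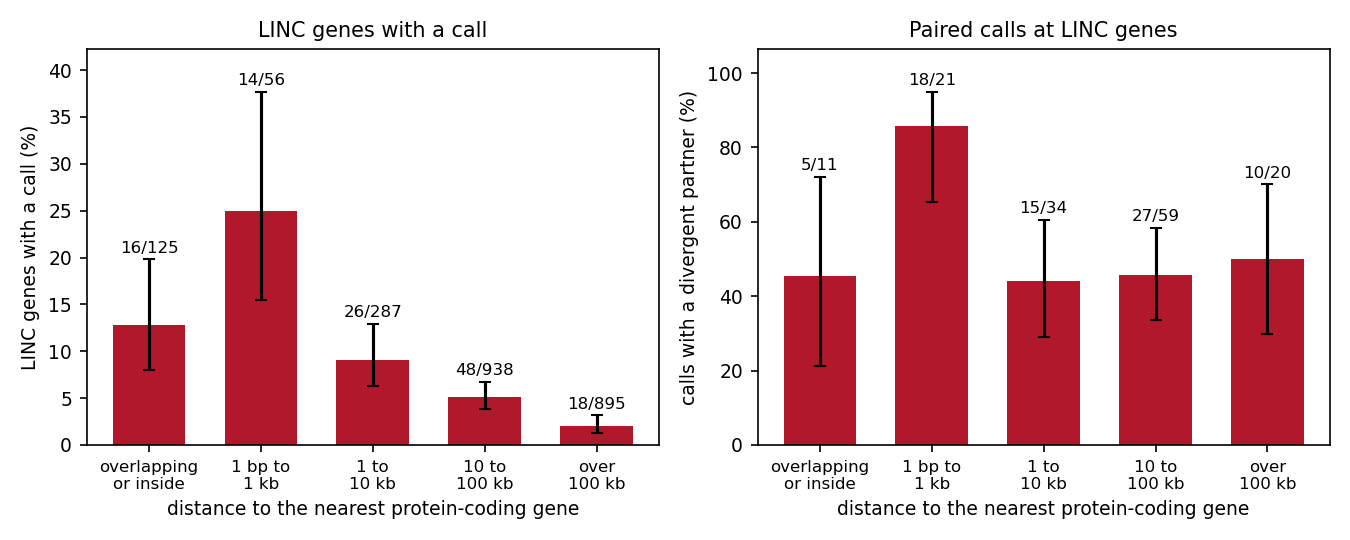
Left, share of LINC genes with a call (%), and right, share of calls at LINC genes with a divergent partner (%), by distance to the nearest protein-coding gene, measured from the gene on the left and from the call on the right. Bars start at 0, error bars are Wilson 95% intervals and the fractions give the counts. The left bars are highest at 1 bp to 1 kb (14 of 56) and lowest beyond 100 kb (2.01%), while the right bars are highest at 1 bp to 1 kb (85.7%) and lie lower in the other classes, from 44.1% to 10 of 20.

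The most remote members lay in large stretches without protein-coding genes. LINC02987 and LINC00662 were 1411858 and 1411421 bp from UQCRFS1, the nearest protein-coding gene. LINC02506 (chromosome 4, 31997379 to 32155406) was called at 31997382, 850582 bp from PCDH7 and 3 bp from its annotated end, with a partner 500 bp away. LINC02226 on chromosome 5 was called at 8457386, 556273 bp from MTRR, with no partner and with the nearest other call 41586 bp away. Then followed LINC00680 (314545 bp), LINC03055 (222064 bp), LINC03021 (207312 bp), LINC01881 (186098 bp), LINC03100 (185972 bp) and LINC00240 (175240 bp). Of these 10 genes, LINC00662, LINC02506, LINC03055, LINC01881, LINC03100 and LINC00240 were paired. The next paired ones were LINC03124, LINC03011, LINC01572 and LINC03040, from 148835 to 112818 bp away.

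Of the 70 unpaired calls, 29 had no other call on either strand within 10000 bp. The loneliest were LINC03063 on chromosome 2, 330817 bp from the next call, LINC02406 on chromosome 12 with 239778 bp and LINC02321 on chromosome 14 with 232140 bp. Their offsets were -1, -85 and 2 bp. These 3 were chosen after their values were seen. No matching share over other calls is given for isolated calls, for partners at no annotated gene end or for calls at tRNA genes. These counts are therefore not read as particular to LINC genes.

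Some member calls lay at or near transfer RNA (tRNA) genes, which are transcribed by RNA polymerase III. The rule was met at a tRNA gene as well by 8 of 145 member calls (5.52%, interval 2.82 to 10.5%), and 5 of these lay 1 to 8 bp upstream of the tRNA gene. At LINC01783 the call at 16535351 was 1 bp from TRE-TTC4-1, and at LINC03126 the call at 16872578 was 5 bp from TRE-TTC3-1, both on chromosome 1. At LINC01623 the call at 28863761 was 5 bp from TRA-AGC2-2 on chromosome 6. The calls at LINC02739 (59566459, chromosome 11) and LINC01962 (181191766, chromosome 5) were 7 and 8 bp from TRF-GAA2-1 and TRT-TGT6-1. Their offsets from the LINC ends were larger, from -329 to 352 bp. The other 3 calls, 2 at LINC02453 and 1 more at LINC02739, had offsets of 88, -285 and 280 bp from the start of the nearest such tRNA gene. Whether the RNA at these calls was that of the LINC gene or of the tRNA was not tested. The line below shows the call of LINC01623 in capitals with the next base, and the right-hand end of the run belongs to the tRNA.
LINC01623, chr6:28863741-28863781, minus strand: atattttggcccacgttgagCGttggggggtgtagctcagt
Without these 8 calls, 137 calls at 116 LINC genes were left.

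Only 1 member call also met the rule at a protein-coding gene, that of LINC03143 at 50260196 on chromosome 3, at SEMA3B, a secreted semaphorin gene. The reverse call of LINC01465 at 62603489 also met the rule at the right-hand end of MIRLET7I, the gene of the let-7i microRNA. That call lay left of the whole microRNA gene (62603686 to 62603769) and runs away from it. It does not mark a start of the microRNA.

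Promoter sequences of called and uncalled LINC genes differed in CpG content, with overlap, and the difference was not tested. CpG dinucleotides are depleted in most of the human genome and kept in CpG islands, which cover the promoters of widely expressed genes. In the 300 bases from 250 before to 50 after the annotated start, the ratio of observed to expected CpG had a median of 0.817 (quartiles 0.623 and 0.909) in 83 of the 84 LINC genes called on their annotated strand (LINC01215 has no entry at its outer end) and of 0.235 (quartiles 0.126 and 0.404) in 1455 uncalled ones. It was 0.876 in called and 0.487 in uncalled protein-coding genes. A ratio over 0.6, a common limit for CpG islands, was found in 65 of 83 called LINC promoters (78.3%) and 190 of 1455 uncalled ones (13.1%), against 48.9% of all 34961 promoters in the table. GC content had quartiles of 57.7 and 69.8% in called and 40.8 and 55.0% in uncalled LINC promoters.

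Called shares also differed by CpG ratio within each distance class. Within 10000 bp of a protein-coding gene, 34 of 101 LINC genes with a ratio over 0.6 were called on the annotated strand (33.7%, interval 25.2 to 43.3%), and 8 of 234 with a lower ratio (3.42%, interval 1.74 to 6.60%). Over 10000 bp away these were 31 of 155 (interval 14.5 to 27.0%) and 10 of 1055 (0.948%, interval 0.516 to 1.74%). No test was made of these shares.

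**Figure D4:**
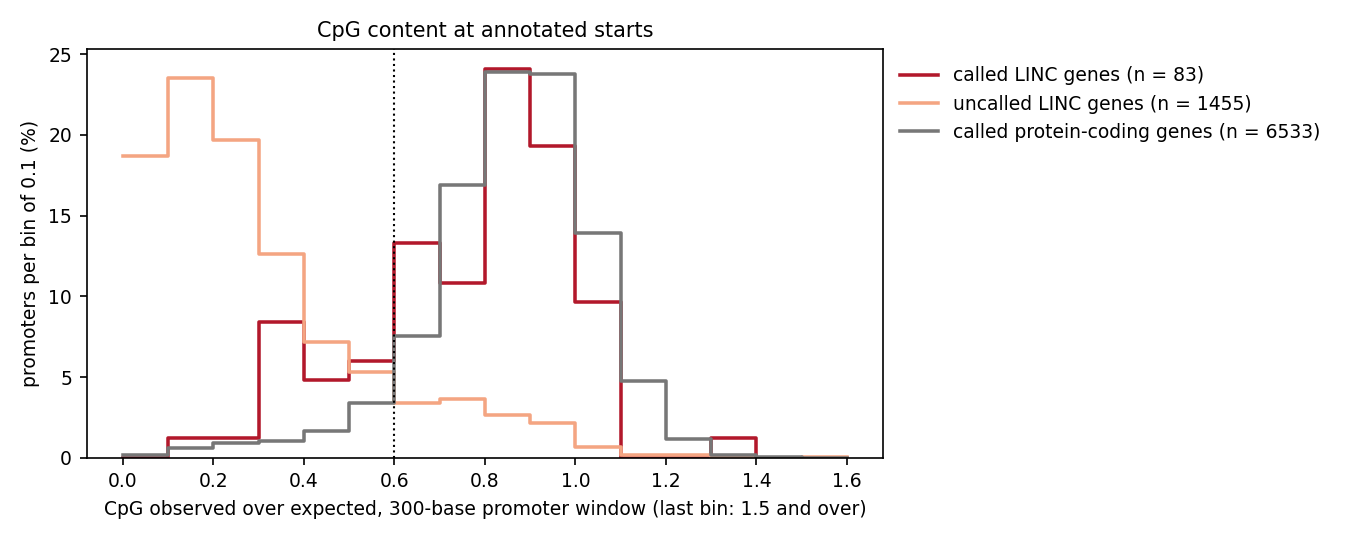
Share of promoters (vertical axis, % per bin of 0.1) by CpG observed over expected (horizontal axis) for 83 called LINC genes, 1455 uncalled LINC genes and 6533 called protein-coding genes, with a dotted line at 0.6. Called LINC genes lie mostly right of the line with called protein-coding genes, and uncalled LINC genes mostly left of it.

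Letter searches on both strands of the same windows gave smaller differences. TATAAA was found in 6 of 83 called LINC promoters (7.23%), in 16.9% of uncalled ones and in 11.5% of all promoters. CCAAT, the core of the site of NF-Y, was found in 33 of 83 (39.8%), in 35.9% of uncalled ones and in 34.6% of all promoters. AGATAA, a form of the site bound by GATA factors, was found in 8 of 83 (9.64%), in 17.0% of uncalled ones and in 10.3% of all promoters. A match is no evidence of binding. The promoters of LINC01134, LINC00667, LINC02226 and LINC02917 are shown because they stand for a gene beside a protein-coding partner, a pair of LINC genes, a remote CpG-rich gene and a CpG-poor gene. All run 5′ to 3′ with the annotated start at base 251, and capitals mark the 3 motifs on either strand, which may adjoin.
LINC01134, chr1:3900154-3900453, plus strand: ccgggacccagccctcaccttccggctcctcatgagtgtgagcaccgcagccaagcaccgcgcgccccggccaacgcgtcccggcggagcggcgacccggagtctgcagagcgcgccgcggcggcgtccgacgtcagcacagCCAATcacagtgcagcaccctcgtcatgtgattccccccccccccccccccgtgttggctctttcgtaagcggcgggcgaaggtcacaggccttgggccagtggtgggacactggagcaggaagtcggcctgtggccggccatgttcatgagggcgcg
LINC00667, chr18:5237850-5238149, plus strand: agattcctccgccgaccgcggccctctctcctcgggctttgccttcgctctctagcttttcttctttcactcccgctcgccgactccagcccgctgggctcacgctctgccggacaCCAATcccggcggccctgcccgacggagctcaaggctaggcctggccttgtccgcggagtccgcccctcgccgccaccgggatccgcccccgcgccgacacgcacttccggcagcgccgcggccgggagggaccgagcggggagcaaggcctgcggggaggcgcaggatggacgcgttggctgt
LINC02226, chr5:8457515-8457814, minus strand: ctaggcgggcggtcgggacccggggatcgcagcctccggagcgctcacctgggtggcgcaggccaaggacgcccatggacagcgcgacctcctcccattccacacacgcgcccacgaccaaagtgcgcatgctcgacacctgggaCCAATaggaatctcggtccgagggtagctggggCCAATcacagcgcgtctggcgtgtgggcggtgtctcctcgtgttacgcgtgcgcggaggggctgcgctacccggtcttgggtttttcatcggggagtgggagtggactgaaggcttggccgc
LINC02917, chr3:152205378-152205677, minus strand: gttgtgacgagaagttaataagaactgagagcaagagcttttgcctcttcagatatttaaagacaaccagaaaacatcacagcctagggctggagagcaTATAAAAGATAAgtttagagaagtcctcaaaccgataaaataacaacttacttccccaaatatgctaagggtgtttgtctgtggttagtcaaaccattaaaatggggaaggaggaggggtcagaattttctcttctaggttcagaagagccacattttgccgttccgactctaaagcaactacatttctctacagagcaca
Their CpG ratios are 0.859, 0.994, 0.917 and 0.329. LINC02226 has CCAAT with its first base at -105 and at -72 from the annotated start, and its call lay 178 bp downstream. LINC02917 has TATAAA from -151 and AGATAA from -145, next to each other, and its call at -10 bp was paired at 132 bp.

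LINC00853 (chromosome 1, 47179250 to 47180339) was the only called LINC gene within 100 kb of a gene on a list of erythroid genes, at 35951 bp from TAL1, an essential transcription factor of blood cells. Its only call, forward at 47179343, had an offset of 93 bp, was 4239 bp from PDZK1IP1, and had no divergent partner. The list held 53 genes, and 11 LINC genes lay within that distance of them, so that 1 of 11 was called (9.09%, interval 1.62 to 37.7%), against 121 of 2290 farther away (5.28%, interval 4.44 to 6.28%).

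A short list of LINC genes with a reported role held 10 symbols, of which LINC00461 is MIR9-2HG in the gene table and so was not among the LINC genes. Of the other 9, 2 were called, against the 5.30% of LINC genes and 18.9% of all genes given above, which was not tested. LINC00467 on chromosome 1 was called at 211382833, 78 bp inside its end, with a partner at 94 bp, and LINC00662 as described. LINC00261, a lncRNA of endoderm next to FOXA2, and LINC00473, which is induced by cyclic AMP, had 0 calls on either strand in the gene or within 500 bp, as had LINC00173, LINC00511 and LINC00665. LINC00299 had a divergent pair deep inside the gene, at 8313059 and 8313204 on chromosome 2. LINC00324 (chromosome 17, 8220630 to 8224043) held 3 reverse and 2 forward calls, the nearest reverse one 1135 bp inside its right-hand end. A gene with no call may still be transcribed, since the caller's read minimum is not known.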

How the data were processed

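PRO-seq start-site calls were taken from 2 BED lists of 28283 calls in all, deposited for the series as a whole. Per the file headers, TSScall made them from 1 sorted, de-duplicated alignment. The submitters' processing notes name hg38, SAMtools 1.17, deepTools 3.5.4, Picard and BWA 0.7.16a. The score column as deposited was 0 throughout. The end coordinate, another deposited value with no unit of signal, was taken as the 1-based position. For TSScall, version and read minimum: not given in the sources used here.

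Genes, strands and promoters came from RefSeq GRCh38.p14. Promoter entries existed for 1575 of 2301 LINC genes. Promoter windows of chromosome 8, with 85 LINC genes of which 5 were called, were not used here, so strand, CpG and motif results leave that chromosome out. The gene table has no exons. Offsets are positive downstream. Shares have Wilson 95% intervals. Pairing and placement were compared by two-sided Fisher's exact tests, adjusted over 4 tests; classes were made not to share calls. Python 3.11.15, scipy 1.17.1, numpy 2.4.6, matplotlib 3.10.9 and pandas 2.3.3 were used, and the rule was tested on simulated calls.

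Named LINC genes were those with the most calls, the most remote, the closest pairs, those near the erythroid list, at offset 0, at the window's limit or met at both ends, and those with a reported role. Other names were chosen after their values were seen. The members and lists were chosen with earlier results of these data known.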

Additional observations from a re-analysis of the deposited data

How the results depend on the processing

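The direction and side of the threshold of all 4 tests were the same under the alternatives run for each, apart from the odds ratio of placement against other lncRNA genes, which lay on either side of 1 and never passed the test. There were 87 member calls with a 100 bp window, against 145, and the share within 50 bp of the end from 48.3% to 34.0% with 1000 bp, which adds calls farther out by construction. The share of calls near a protein-coding gene moved from 22.1% within 1000 bp to 35.2% within 5000 bp, by construction. On the annotated strand only, 97 calls at 84 genes were left, and 55.7% were paired. With calls within 500 bp merged, 44.0% were paired. Against protein-coding genes the adjusted p of pairing was at most 0.0217 (Fisher's exact test, annotated strand only). Moving positions by 1 base, the other lncRNA genes without suffixes, every annotated start, leaving out tRNA calls, and the tests without calls at protein-coding genes were chosen after seeing the data. No paired analysis was possible because the lists have no column per library. Unknown depth limits what a missing call means.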

Other observations

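With every annotated start in the promoter table, 4 further LINC genes had a call on their annotated strand within 500 bp of a start, though not by the outer end of the gene. LINC03125 on chromosome 20 was called at 23187960, 1 bp upstream of such a start. LINC02777 on chromosome 1 was called at 58896727, 59 bp downstream, LINC00863 on chromosome 10 at 87342922, 186 bp downstream, and LINC02542 on chromosome 6 at 81938487, 66 bp upstream. In all, 83 LINC genes (3.61%, interval 2.92 to 4.45%) had calls over the gene body or its 500 bp flanks, none of which met the rule.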
